A study of Mus musculus with 4 samples.

Results

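The genes described here are *H2-Aa*, *H2-Ab1*, *H2-Eb1* and *Cd74*, the 4 genes named for MHC class II antigen presentation, out of 16892 genes in a single-cell RNA-seq count table of the mouse epididymis and vas deferens. They were taken by symbol, and all 4 were in the table. The cells came from FVB/NJ males aged 10 to 12 weeks, and the labels name no treatment and no altered allele. The 8 epididymides of 4 mice were cut into caput, corpus, cauda and vas deferens, sperm were washed away, and the pieces of each segment were pooled into 1 suspension and 1 droplet library of transcript 3′ ends. The table holds 8880 cells: 1433 from the caput, 2325 from the corpus, 1616 from the cauda and 3506 from the vas deferens, with a median of 1599, 1433, 1741.5 and 2207 UMIs per cell in that order. A UMI, or unique molecular identifier, marks 1 captured transcript molecule.

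With 1 pooled library per segment there is no replicate, so no test was run between segments, and a segment cannot be told apart from its library. Levels are given as UPM, the UMIs of a gene per 1000000 UMIs of a group of cells, with exact 95% Poisson intervals. Shares of cells carry exact (Clopper-Pearson) intervals and ratios exact conditional intervals. All of these cover counting error only and treat the UMIs of a cell as independent. Where a group held no UMI, the level of 3 UMIs, or the share of 3 cells, is given. For levels this lies under the upper end of the exact 95% interval. Cell types and populations are those of the study's own clustering of the same counts, so a difference between them is a description. The 15 principal cell populations are numbered from the caput to the vas deferens.

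MHC class II molecules carry peptides from ingested proteins to the cell surface, where CD4 T cells read them. *H2-Aa* and *H2-Ab1* encode the alpha and beta chains of the mouse I-A molecule, and *H2-Eb1* encodes the beta chain of I-E. *Cd74*, on another chromosome (18, from 60803849 to 60812652 in the GRCm38.p6 assembly), encodes the invariant chain, which holds the groove of a new molecule closed and steers it to the endosome, where cathepsins cut the chain away and H2-DM exchanges its last fragment for a peptide. Dendritic cells, macrophages and B cells make these molecules all the time, and many epithelial and endothelial cells make them when interferon gamma switches on the class II transactivator Ciita. Ciita does not bind DNA itself but sits on factors, among them RFX and NF-Y, that hold the X and Y boxes in front of class II genes. In the epididymis, mononuclear phagocytes lie at the base of the epithelium that faces the maturing sperm.

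In the GRCm38.p6 assembly, *H2-Ab1* lies on chromosome 17 from 34263227 to 34269418, *H2-Aa* from 34282744 to 34287823 and *H2-Eb1* from 34305867 to 34316674. Promoter sequences from RefSeq (GRCm38.p6, a C57BL/6J genome) were at hand for *H2-Aa* and *H2-Eb1*. They are printed because the levels of the 2 genes ran together over the 34 cell populations below (Pearson's r = 0.967, as a description). Each run is the 250 bases before the annotated start, 5′ to 3′ on the strand of the gene, and the capitals mark matches, on either strand, to the Y box CTGATTGG and to the X box core ACNGATG. The *H2-Aa* window is chr17:34287824-34288073 on the minus strand and the *H2-Eb1* window chr17:34305617-34305866 on the plus strand.
H2-Aa: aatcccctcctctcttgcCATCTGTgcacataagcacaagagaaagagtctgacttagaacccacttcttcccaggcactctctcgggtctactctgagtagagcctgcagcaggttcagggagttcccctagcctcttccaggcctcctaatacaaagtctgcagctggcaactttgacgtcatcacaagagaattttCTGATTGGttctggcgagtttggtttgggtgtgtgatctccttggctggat
H2-Eb1: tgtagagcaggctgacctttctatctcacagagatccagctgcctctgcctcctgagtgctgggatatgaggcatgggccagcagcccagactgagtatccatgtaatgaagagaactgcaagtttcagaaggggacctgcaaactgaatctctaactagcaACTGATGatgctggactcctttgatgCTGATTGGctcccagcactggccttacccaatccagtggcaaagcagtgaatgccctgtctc
The Y box lay 51 bases before the start in *H2-Aa* and 62 bases before it in *H2-Eb1*. The X box core lay 88 bases before the start in *H2-Eb1*, upstream of the Y box on the same strand. In *H2-Aa* the only match to this pattern lay 232 bases before the start on the other strand. An X box with other letters would not be marked, so its absence nearer the start cannot be read from this. Of 32851 promoter windows of this length, 3.83% held the Y box, 8.31% the X box core and 0.301% both. No binding was measured in these cells.

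The marker levels given here describe the labels of the cells. The study itself lists *Ccr7*, *Cd3g*, *Emcn* and *Vwf* among the genes of these populations, so they are no independent check. Dendritic cells (21) held *Ccr7* at 1260 UPM (109 UMIs) and *Cd209a* at 243 UPM, while *Flt3* (7 UMIs) and *Xcr1* (8) were sparse and the macrophage list stood at 0.0620 times (0.0437–0.0853) its level in macrophages. The 130 macrophages, 26 of them in the Trem2 population, held all 7 macrophage markers with a row in the table, *C1qa* among them at 2728 UPM. The 44 T cells held *Cd3g* at 743 UPM. The 245 endothelial cells held all 7 endothelial markers, from *Vwf* at 87.4 UPM to *Emcn* at 832 UPM. No B-cell population was named, and of the B-cell markers *Cd79a*, *Cd79b* and *Ms4a1* no cell type held over 15 UMIs, which were of *Cd79a* in clear cells.

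Class II transcripts were concentrated in very few cells. The 195 immune cells made up 2.20% of all cells and held 91.7% of the 20468 UMIs of the 4 genes. Of the whole, *Cd74* gave 14203 UMIs, *H2-Ab1* 3443, *H2-Aa* 2652 and *H2-Eb1* 170. These are counts of captured 3′ ends and say little of how 1 gene compares with another, so each gene is compared below with itself across cells. In immune cells the 4 genes summed to 32252 UPM (31792–32717).

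Over the 4 libraries together, the order of the cell types by the summed level of the 4 genes ran from immune cells through endothelial cells to the epithelium. Endothelial cells stood at 464 UPM (419–513; 388 UMIs, 245 cells). Basal cells stood at 80.0 UPM (73.1–87.4; 1397 cells) and clear cells at 74.6 UPM (61.2–90.0; 348 cells), a ratio of clear to basal of 0.932 (0.750–1.15) that pools opposite differences. Clear cells stood at 33.0 times (11.4–130) basal cells in the caput and 7.05 times (4.25–11.8) in the corpus, at 0.767 times (0.511–1.13) in the cauda and at 0.144 times (0.0525–0.316) in the vas deferens. The 2 types thus changed places between libraries. Muscle cells, at 25.6 UPM (18.2–35.0), and stromal cells, at 23.4 UPM (19.9–27.5), had overlapping intervals, and principal cells stood at 13.3 UPM (11.1–15.8; 127 UMIs in 3956 cells). The place of muscle above principal cells rested on 1 cell: without the richest cell of each type muscle stood at 5.95 UPM and principal cells at 10.8 UPM, a ratio of 0.552 (0.246–1.09) in place of 1.93 (1.31–2.78). Immune cells thus stood 69.4 times (62.8–77.0) above endothelial cells, and endothelial cells 12.7 times (11.3–14.3) above all other non-immune cells together. The second ratio rested on the vas deferens: over the 3 epididymal libraries alone it was 1.21, and the first was then 1113. In those libraries clear cells stood above endothelial cells, at 78.5 UPM (64.1–95.2) against 28.9 UPM (14.4–51.7).

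**Figure D1:**
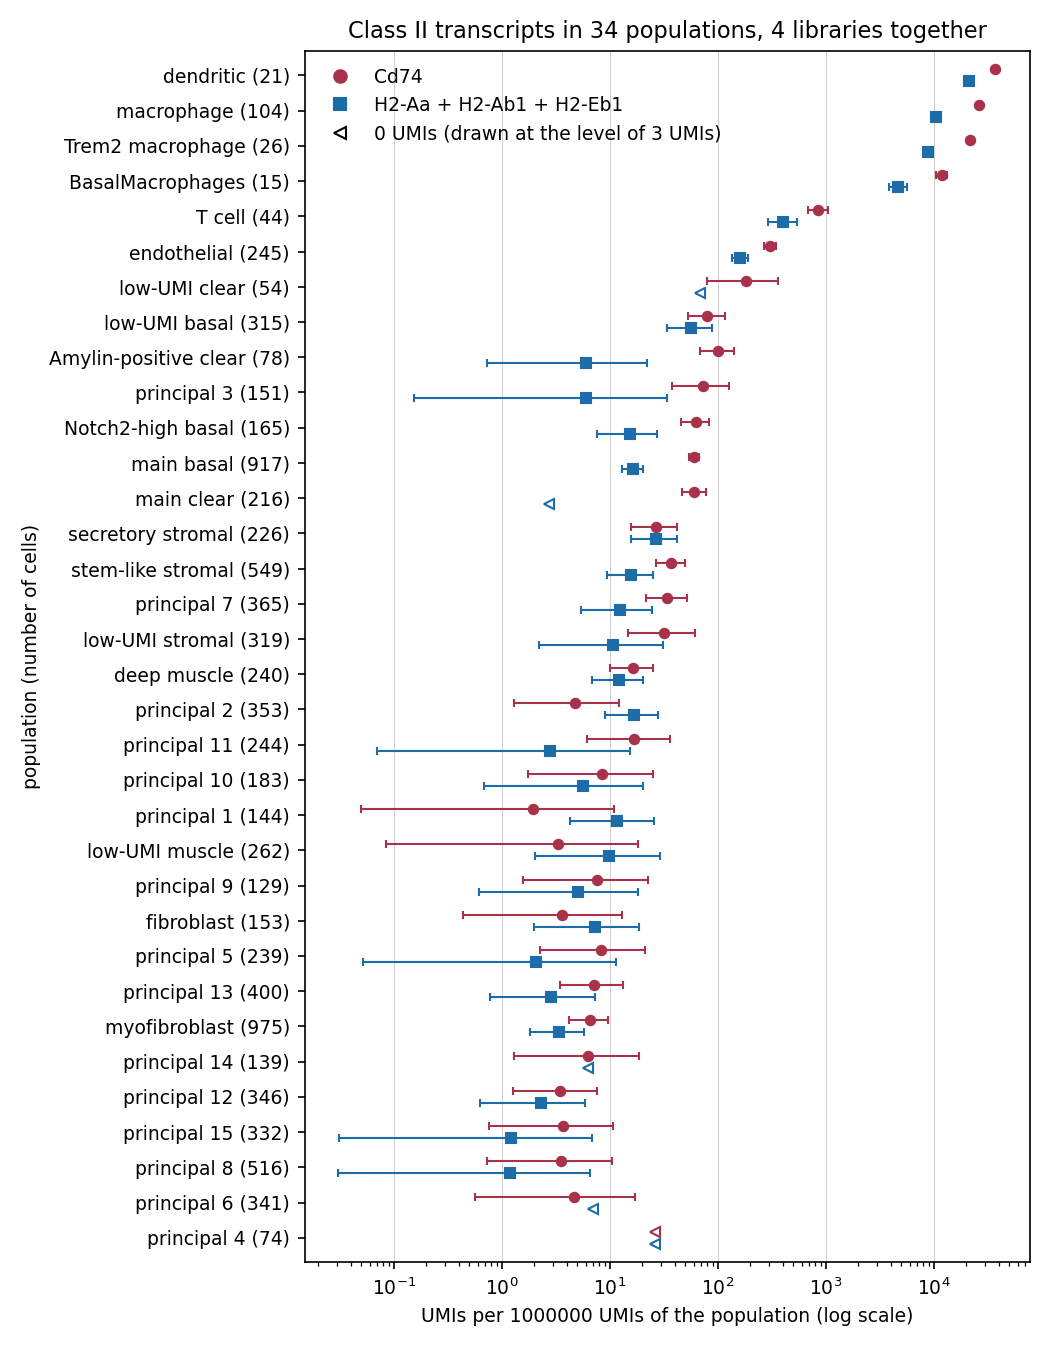
Levels of *Cd74* (circles) and of *H2-Aa*, *H2-Ab1* and *H2-Eb1* summed (squares) in 34 populations over the 4 libraries together, in UMIs per 1000000 UMIs on a log axis, with exact 95% Poisson intervals; open triangles mark 0 UMIs and stand at the level of 3 UMIs. Dendritic cells and macrophages lie far to the right of all epithelial populations, and the main and low-UMI clear populations show *Cd74* with 0 UMIs of the H2 genes.

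Across the 34 populations, again over the 4 libraries together, the same order was seen at finer grain. Dendritic cells led (58190 UPM), followed by macrophages (36517 UPM) and Trem2 macrophages (30580 UPM), whose intervals did not overlap. A population that the study named BasalMacrophages came next at 16561 UPM, then T cells at 1251 UPM and endothelial cells at 464 UPM. Every other population was lower, from 183 UPM (79.1–361; 8 UMIs) in the low-UMI clear cells down to 0 UMIs in 74 cells of the fourth principal population, which allows up to 26.1 UPM.

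Dendritic cells carried the highest levels, and all 21 of them held UMIs of these genes. The study lists *H2-Aa* and *H2-Ab1* among the genes that mark this population, so a high level is partly built into the label. Every member was higher in dendritic cells than in the 2 macrophage populations together. *H2-Aa* stood at 8172 UPM (7581–8798) against 4615 UPM (4403–4835), *H2-Ab1* at 12461 UPM (11728–13228) against 5285 UPM (5058–5520), *H2-Eb1* at 555 UPM (409–736) against 249 UPM (202–304), and *Cd74* at 37002 UPM (35731–38306) against 25157 UPM (24658–25662). The ratios were 1.77 (1.62–1.93), 2.36 (2.19–2.54), 2.23 (1.54–3.18) and 1.47 (1.41–1.53), so the H2 transcripts differed by more than *Cd74* did. *Cd74* gave 63.6% (62.2–64.9) of the class II UMIs of dendritic cells against 71.3% (70.5–72.0) in macrophages. Within the vas deferens, which held 19 of the 21 dendritic cells, the summed ratio was 1.77 (1.70–1.84). Without the vas deferens it was 2.55, from 2 dendritic cells. None of the 4 genes reached the 4-fold used to call a gene between cell types, where 2.48% of 2381 genes were called higher and 13.3% lower in dendritic cells.

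As a share of each cell's own UMIs, the 4 genes ranged from 2.82% to 22.6% in dendritic cells, with a median of 5.19%. The lone dendritic cells of the corpus and the cauda were at 22.6% and 9.36%. In the main macrophage population the median was 3.45% and the highest 10.2%, and in Trem2 macrophages the median was 2.77% and the highest 11.4%. No dendritic cell was under 1%, whereas 11 of 104 macrophages held no UMI of the 4 genes and 79 held over 1%. The cells therefore overlapped: the dendritic median was above the upper quartile of the Trem2 macrophages, 4.15%, but under that of the macrophages, 5.30%. All 4 genes were found together in 15 of 21 dendritic cells and in 49 of 130 macrophages, at medians of 5055 and 2863 UMIs per cell.

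**Figure D2:**
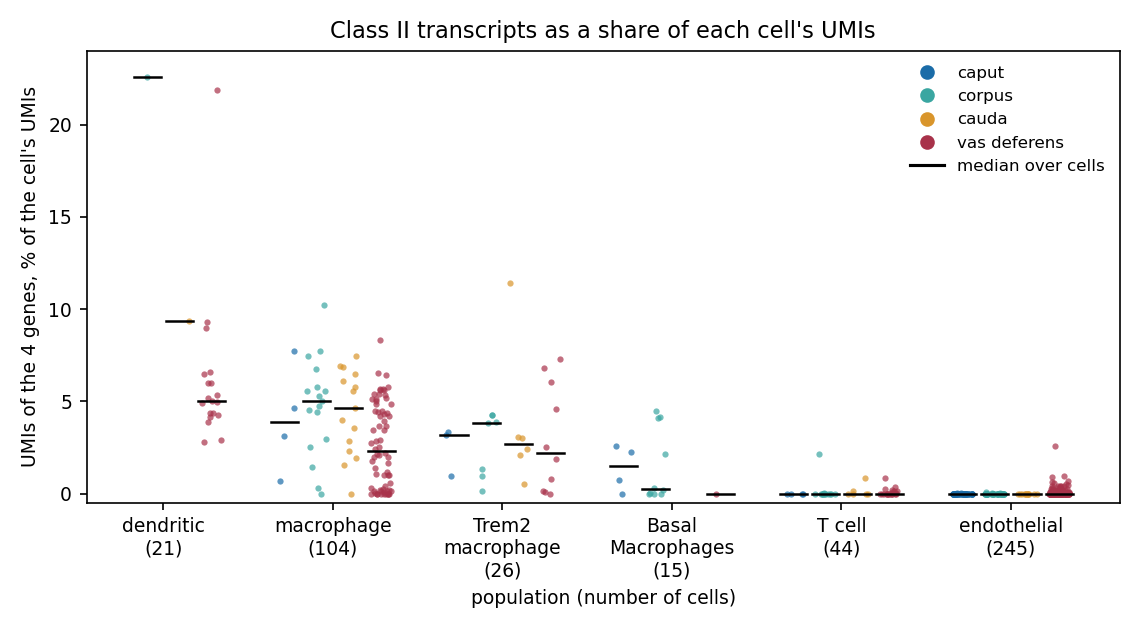
UMIs of *H2-Aa*, *H2-Ab1*, *H2-Eb1* and *Cd74* as a percent of each cell's UMIs, 1 point per cell, by population and library (colours), with black bars at the median of each library. Dendritic cells lie between 2.82% and 22.6%, macrophages spread from 0 to 10.2%, and most T cells and endothelial cells are at 0.

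Among macrophages the vas deferens was lower than the epididymis. The summed level was 37953 UPM in 7 caput cells, 39865 UPM in 24 corpus cells, 44429 UPM in 21 cauda cells and 30277 UPM in 78 cells of the vas deferens. The 3 epididymal libraries were thus all above the vas deferens, and the ratio of the vas deferens to the epididymis was 0.723 (0.699–0.748). By gene it was 0.678 (0.652–0.706) for *Cd74*, 0.754 (0.687–0.829) for *H2-Aa*, 0.919 (0.841–1.004) for *H2-Ab1* and 1.40 (0.907–2.19) for *H2-Eb1*, so the last 2 did not differ beyond counting error. The main macrophage population stood at 0.633 (0.609–0.657), while the Trem2 population was at 1.03 (0.942–1.13) with 10 cells in the vas deferens. The median cell of the main population held 3.86% class II UMIs for caput, 5.04% for corpus and 4.62% for cauda macrophages, against 2.30% in the vas deferens, and the ranges overlapped. Macrophage markers were higher in the vas deferens in the main population, at 1.36 times (1.23–1.51), and their part in the result was not tested. None of the 4 genes was called at 2-fold in either direction, where 14.3% of 2038 genes were called higher and 5% lower in the vas deferens.

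T cells were low: 32 of 44 held no UMI of the 4 genes. A single corpus cell gave 80 of their 138 UMIs and was the only T cell over 1% of its UMIs. The 15 cells named BasalMacrophages (4 from the caput, 10 from the corpus and 1 from the vas deferens) were uneven, with 10 cells holding any of the 387 UMIs and 1 corpus cell holding 134. Of their 23368 UMIs, 242 were of the C1q genes (*C1qa* alone at 5349 UPM) and 2 were of *Krt5*, a basal keratin. Basal cells are therefore described below without them, since counting them as basal would lower the ratio of endothelial to other non-immune cells from 12.7 to 8.96.

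Endothelial cells held class II transcripts almost wholly in the vas deferens. The summed level was 28.2 UPM (7.70–72.3; 4 UMIs) in 50 caput cells and 42.6 UPM (17.1–87.8; 7 UMIs) in 39 corpus cells. The 12 cauda cells held 0 UMIs, where 3 UMIs would be 40.2 UPM, and the 144 vas deferens cells stood at 829 UPM (748–917; 377 UMIs). The vas deferens thus stood far above the other libraries, at 28.7 times (15.9–58.0) the 3 epididymal libraries together (44.8 without the corpus). *Cd74* was at 541 UPM (246 UMIs) against 21.0 UPM (8), *H2-Ab1* at 167 UPM (76) against 2.63 UPM (1), and *H2-Aa* at 112 UPM (51) against 5.25 UPM (2). The ratios were 25.7 (12.9–60.3), 63.6 (11.1–2546) and 21.4 (5.62–181). *H2-Eb1* had 4 UMIs in the vas deferens and 0 in the epididymis. All 3 genes with enough UMIs were called higher at 2-fold, where 8.57% of 5038 genes were called higher and 9.05% lower.

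The transcripts were found in many endothelial cells but unevenly. In the vas deferens 69 of 144 cells held at least 1 UMI and 75 held none, and the richest cell held 46 of the 377. The 14 cells with 10 or more UMIs held 233 of them. With every cell thinned to 1000 UMIs, 18.5% (13.4–24.6) of 200 endothelial cells over all libraries held a UMI, with 45 shallower cells left out, against 0.950% (0.564–1.50) of 1894 principal cells, with 2062 left out. Unthinned, the shares were 30.2% and 2.05%, at medians of 2590 and 934.5 UMIs per cell. Principal cells serve here as a background share, without knowing that they lack the genes, and the endothelial share stood well above theirs. By library, *Cd74* was found in 30 of 120 thinned vas deferens cells (25.0%), 2 of 37 caput cells, 1 of 32 corpus cells and 0 of 11 cauda cells (an upper limit of 27.3%). Without the vas deferens the share of endothelial cells with any of the 4 genes was 3.75%.

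**Figure D3:**
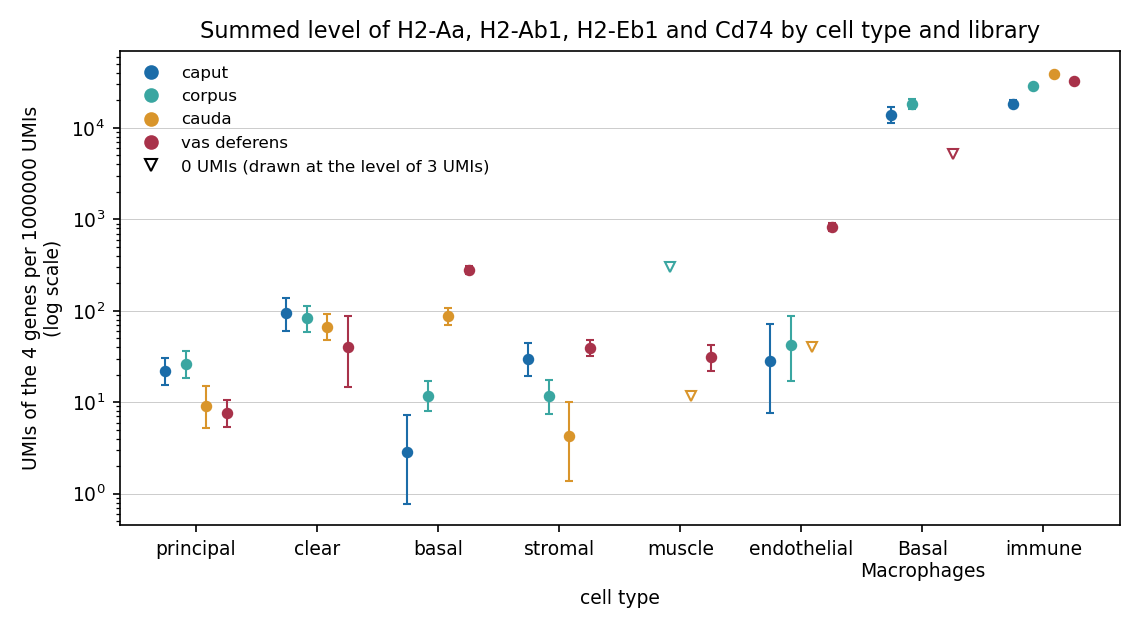
Summed level of the 4 genes by cell type and library, in UMIs per 1000000 UMIs on a log axis, with exact 95% Poisson intervals; open triangles mark 0 UMIs at the level of 3 UMIs. Vas deferens points lie above the epididymal ones in endothelial and basal cells and below the caput and corpus points in principal cells.

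Macrophage markers also moved with the vas deferens in endothelial cells: 6 of the 7 in the table had UMIs there, 69 in all at 152 UPM, against 2 UMIs at 5.25 UPM in the epididymis, with *Cx3cr1* at 0. The leukocyte list without *Cd52* (left out because principal cells held it at 20559 UPM) differed less, at 3.91 times (1.87–9.13), with *Coro1a* at 0. The class II difference was as large without the cells that held any such UMI. In the remaining 123 vas deferens cells the 4 genes stood at 781 UPM (693–878; 283 UMIs) and 48.8% of cells held one, against 27.1 UPM (12.4–51.4; 9 UMIs, 94 cells) in the epididymis, a ratio of 28.9 (15.0–63.8). The C1q genes gave 8.94% (6.37–12.1) of the class II and C1q UMIs together in vas deferens endothelium, 10.5% (10.0–11.1) in its immune cells and 16.0% in its macrophages. Immune cells of the vas deferens held 8.49 class II UMIs per C1q UMI. A cell with few class II UMIs can therefore lack a marker UMI whatever their source. The part of immune transcripts in the endothelial level was not tested. Of the 14 endothelial cells with 10 or more class II UMIs, 12 held an endothelial marker, 5 an immune marker, 2 a C1q UMI and 4 a lymphatic marker. None was called a doublet, but the number of calls was set in advance. Of simulated vas deferens doublets, 60.2% scored at or above the last call, so a doublet could be missed.

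**Figure D4:**
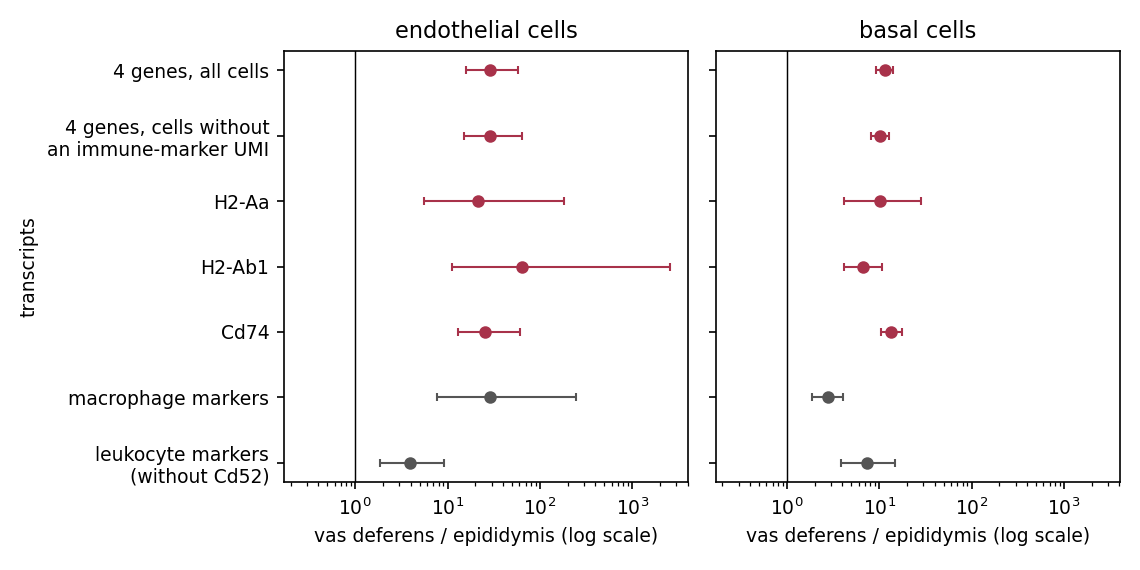
Ratio of the level in the vas deferens to that in the 3 epididymal libraries together, in endothelial and basal cells, on a log axis with exact 95% intervals; red points are class II transcripts and grey points the marker lists. The ratio of the 4 genes is nearly the same in all cells and in cells without an immune-marker UMI. A cell with few class II UMIs can lack a marker UMI whatever their source.

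In basal cells each segment was higher than the one before it along the duct. The 300 caput cells summed to 2.85 UPM (0.776–7.29; 4 UMIs), the 511 corpus cells to 11.8 UPM (7.93–17.0; 29 UMIs), the 193 cauda cells to 87.8 UPM (70.1–109; 84 UMIs) and the 393 vas deferens cells to 278 UPM (251–308; 376 UMIs). No pair of neighbouring segments overlapped. Against principal cells of the same library, which share its free RNA, basal cells went from 0.129 times (0.0335–0.359) in the caput through 0.454 (0.269–0.759) and 9.55 (5.55–17.5) to 36.2 times (25.7–52.5) in the vas deferens. The corpus value rested on 1 principal cell with 24 of the 37 UMIs, and without it the ratio was 1.29 (0.650–2.70). The vas deferens stood at 11.4 times (9.28–14.2) the epididymis, with *Cd74* at 13.6 (10.6–17.6), *H2-Aa* at 10.2 (4.13–28.5) and *H2-Ab1* at 6.63 (4.15–10.8). *H2-Eb1* had 1 UMI against 2. All 3 genes with enough UMIs were called higher at 2-fold, where 7.04% of 9826 genes were called higher and 8.27% lower.

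Most basal cells nonetheless held none of these transcripts, and those that did held few. In the vas deferens 120 of 393 cells held a UMI, at most 23 in 1 cell. Thinned to 1000 UMIs, *Cd74* was found in 42 of 343 basal cells of the vas deferens (12.2%), 7 of 170 of the cauda, 3 of 393 of the corpus and 0 of 241 of the caput. At this depth 3 cells of 241 would be 1.24%, which limits cells with a UMI and not cells with the transcript. Unthinned, the shares were 27.2%, 14.5%, 2.35% and 0.667%, and in principal cells they lay between 0.951% and 1.69%. Macrophage markers were 2.76 times (1.85–4.08) and leukocyte markers without *Cd52* 7.36 times (3.86–14.7) as high in the vas deferens as in the epididymis. Without every cell that held one of them, 254 UPM (227–284; 369 cells) stood against 24.9 UPM (20.4–30.0; 937 cells), a ratio of 10.2 (8.20–12.8). The part of immune transcripts in the basal level was not tested. The main, Notch2-high and low-UMI basal populations stood at 76.7, 77.5 and 136 UPM over the 4 libraries, which they drew on unequally. Within the vas deferens, which gave 291 of 917 main, 59 of 165 Notch2-high and 43 of 315 low-UMI cells, the Notch2-high population stood at 0.584 times (0.387–0.850) and the low-UMI population at 2.85 times (1.89–4.15) the main one. In the cauda the Notch2-high population was the higher, at 2.19 times (1.29–3.62).

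Clear cells, the proton-pumping cells of the epithelium, held *Cd74* and nearly no H2 transcripts. Of their 109 UMIs, 107 were *Cd74* (98.2%, 93.5–99.8), 1 was *H2-Ab1* and 1 *H2-Eb1*, and *H2-Aa* had none. *Cd74* was found in 63 of 348 cells, and in 0 of 348 cells (0.862% would be 3 cells) was it found beside an H2 gene. Only 2 cells held an H2 UMI, so the 2 could hardly have been seen together. The main clear population held 66 *Cd74* and 0 H2 UMIs (3 UMIs would be 2.76 UPM). The share of *Cd74* was higher than the 69.2% (68.5–69.8) of immune cells, and in no other cell type, over the 4 libraries together, did its interval reach 93.5%. The level of *Cd74* was 90.2 UPM in caput, 81.4 UPM in corpus, 67.4 UPM in cauda and 40.1 UPM in vas deferens clear cells, with overlapping intervals and a ratio of vas deferens to epididymis of 0.520 (0.187–1.17).

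*Cd74* in clear cells stood above principal cells in each library, at 9.15 times (4.71–18.1) for caput, 4.12 (2.47–6.98) for corpus, 9.76 (5.01–20.5) for cauda and 7.50 (2.52–18.7) for vas deferens cells. Single principal cells held 10 of 17 *Cd74* UMIs in the caput and 17 of 28 in the corpus, and without the richest principal cell the ratios were 22.2 (9.29–61.1) and 10.48 (5.25–22.7). Thinned, 6.30% (3.57–10.2) of 238 clear cells held it, with 110 left out, against 0.528% (0.253–0.969) of principal cells, and unthinned 18.1% and 1.29%, at medians of 4430 and 934.5 UMIs. The C1q genes had 1 UMI in all clear cells, and 104 of the 109 class II UMIs lay in cells with no immune-marker UMI. Of the 2 members with enough UMIs, *Cd74* was called higher than in principal cells at 4-fold and *H2-Ab1* lower, the latter at 0.204 times (0.00502–1.22) from 1 UMI against 32, where 8.46% of 11492 genes were called higher and 6.76% lower.

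**Figure D5:**
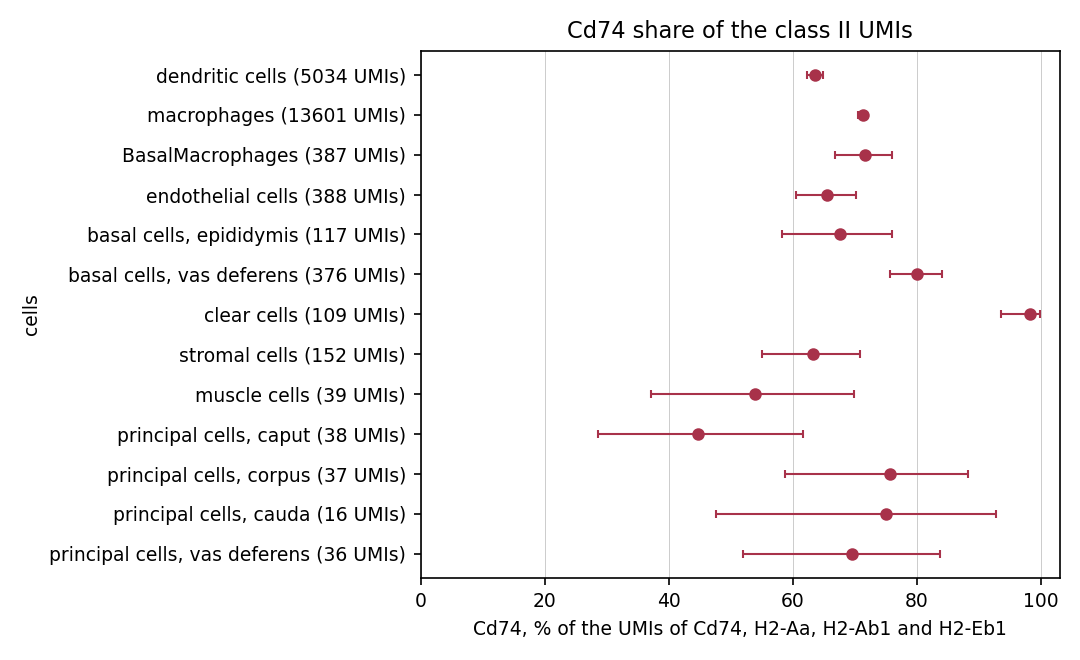
*Cd74* as a percent of all class II UMIs in 13 groups of cells, with exact 95% intervals and the number of UMIs beside each name. Clear cells stand at 98.2% and caput principal cells at 44.7%, while macrophages, endothelial cells and dendritic cells lie between 63.6% and 71.3%.

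Principal cells, the main absorptive and secretory cells of the duct, held low levels in every library, each above the level that 3 UMIs would give. Caput cells summed to 22.0 UPM (15.6–30.3), corpus cells to 26.1 UPM (18.4–35.9), cauda cells to 9.20 UPM (5.26–14.9) and vas deferens cells to 7.69 UPM (5.38–10.6). Single cells decided the corpus value, where 1 cell gave 24 of 37 UMIs, and the level of the third principal population (78.2 UPM), where 1 cell gave 10 of 13. In the caput the mix was unlike that of immune cells: 20 of 21 H2 UMIs were *H2-Ab1*, spread over 17 cells, against 54.2% of H2 UMIs in immune cells, and *Cd74* made up 44.7% (28.6–61.7) of class II UMIs. The first 2 principal populations, which are caput cells, held *H2-Ab1* at 8.86 times (4.15–19.5) the level of the other principal cells, from 19 UMIs against 13, and *Cd74* at 0.394 times (0.124–0.959). Without the richest cell on each side these were 16.3 (6.06–50.8) and 0.405 (0.107–1.09). Their *H2-DMa* was 8.97 times (5.26–15.5) as high, at 37 against 25 UMIs, and macrophage markers were 3.55 times (2.50–5.00) and leukocyte markers without *Cd52* 9.08 times (7.44–11.1) as high. In the caput, 27 of the 38 class II UMIs lay in the 172 of 736 principal cells that held an immune-marker UMI, and the part of those transcripts in the result was not tested.

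Stromal and muscle cells followed single cells. In muscle 1 of 502 cells gave 30 of 39 UMIs. All 39 came from the vas deferens, which held 437 of the 502 cells. In the 65 epididymal muscle cells 3 UMIs would be 11.4 UPM, so a difference between segments could not be judged. In stroma 1 caput cell gave 19 of that library's 25 UMIs, and 1 vas deferens cell gave 29 of 99. Leaving out the cells with an immune-marker UMI took muscle from 39 to 9 UMIs and stroma from 152 to 89, and the ratio of vas deferens to epididymis in stroma from 2.96 (2.10–4.22) to 2.58 (1.65–4.09). C1q UMIs made up 33.6% (26.0–41.7) of class II and C1q UMIs together in vas deferens stroma, above the 16.0% (15.2–16.8) of its macrophages.

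The rest of the pathway was read from lists of genes. Of the loading genes, *H2-DMa*, the alpha chain of the peptide exchanger, stood at 374 UPM (144 UMIs) in macrophages and 809 UPM (70) in dendritic cells, 2.16 times (1.60–2.90) as high. *H2-Oa* and *H2-Ob*, which make the inhibitor of H2-DM, had 10 and 7 UMIs in dendritic cells against 4 and 2 in all macrophages. *H2-DMa* and *H2-Oa* are also among the genes by which the study described its dendritic cells. In endothelial cells *H2-DMa* had 11 UMIs (13.2 UPM), *H2-DMb1* 9 and *H2-DMb2* 2. Over the epithelium *H2-DMa* stood at 6.48 UPM (62 UMIs) in principal, 5.36 UPM (33) in basal and 3.42 UPM (5) in clear cells. In basal cells 2 of 3 loading genes with enough UMIs were called higher in the vas deferens, where 7.04% of 9826 genes were. These were *H2-DMa* at 2.97 times (1.39–6.24) and *H2-DMb2* at 2.67 times (0.994–6.91), while *H2-DMb1* stood at 0.791 times (0.356–1.59). In macrophages neither of the 2 with enough UMIs was called higher, where 14.3% of 2038 genes were.

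*Ciita*, the transactivator, had 28 UMIs (72.7 UPM) in macrophages and 5 (57.8 UPM) in dendritic cells. It had 1 UMI in endothelial cells and 2 in basal cells, all 3 from the vas deferens, 1 in stromal cells, and none in clear cells, principal cells or T cells. At such counts its presence outside the phagocytes could not be judged. The RFX and NF-Y genes, in contrast, were found in every epithelial type: *Rfxap* stood at 38.3 UPM in basal, 34.4 in principal and 25.3 in clear cells, and *Nfyb* at 54.4, 38.1 and 21.9 UPM. Of 7 regulators with enough UMIs in basal cells, 1 was called lower in the vas deferens (*Rfx5*) and none higher, where 8.27% of all genes were called lower and 7.04% higher. In endothelial cells none of 3 was called, where 9.05% of all genes were called lower and 8.57% higher.

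The proteases that can cut the invariant chain differed by cell type. *Ctss*, cathepsin S, had 632 UMIs (1641 UPM) in macrophages, 47 (543 UPM) in dendritic cells, 5 in endothelial cells, 19 in basal cells and none in clear cells. *Ctsl*, cathepsin L, ran the other way, at 1898 UPM in basal and 1299 UPM in clear cells against 148 UPM in macrophages and 23.1 UPM in dendritic cells. Costimulatory *Cd86* stood at 493 UPM in macrophages and 370 UPM in dendritic cells and had at most 4 UMIs in any epithelial type, in stroma or in endothelium. *Cd80* had 20 UMIs (231 UPM) in dendritic cells and 12 (31.2 UPM) in macrophages. A row of the table also counted the I-E alpha pseudogene *H2-Ea-ps*, with 124 UMIs (322 UPM) in macrophages, 72 (832 UPM) in dendritic cells, and 1 in endothelial cells.

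Class I genes, which present peptides from inside the cell, were also higher in the vas deferens in basal cells. There 8 of 9 were called at least 2-fold higher, with a median ratio of 2.41 against 1.05 over all genes: *B2m* went from 3043 to 7298 UPM, *H2-K1* from 1049 to 2541 UPM and the immunoproteasome gene *Psmb8* from 39.7 to 207 UPM. *Tapbp* was the exception, at 119 and 165 UPM. In endothelial cells 3 of 8 (*Tap1*, *Psmb8*, *Psmb9*) were called higher, with a median ratio of 1.74 against 0.9998 over all genes. The class II ratios were larger, with medians of 10.2 in basal and 25.7 in endothelial cells. Of the interferon gamma genes, 2 of 10 were called higher in basal cells, *Gbp2* (12.1 to 55.5 UPM) and *Iigp1* (28.1 to 215 UPM), where 7.04% of all genes were, and the median ratio of the list was 1.77 against 1.05. In endothelial cells 2 of 10 were called higher, *Jak2* (57.8 to 154 UPM) and *Cxcl10* (231 to 735 UPM), where 8.57% of all genes were, with a median of 1.27 against 0.9998. In macrophages, whose class II level was lower in the vas deferens, 3 of 8 were called higher there, where 14.3% of all genes were, with a median of 1.67 against 1.14. These were *Jak2* (65.7 to 156 UPM), *Irf1* (143 to 298 UPM) and *Iigp1* (0 to 26 UMIs, at least 6.66-fold higher with 0 raised to 3 UMIs). *Ifng* itself had 14 UMIs in T cells and 1 in stromal cells, and none in any other type.

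The genes whose levels over the 34 populations were most like the summed level of the 4 members, by Pearson's r of log2(UPM + 10), were *Gp49a* (0.943), *Cd83* (0.940), *Spi1* (0.940), *Il1b* (0.937), *Plek* (0.935), *Lilrb4* (0.934), *Cd53* (0.933), *Evi2a* (0.932), *Ncf4* (0.932) and *Cd86* (0.931), out of 11610 genes. The points share libraries and differ in depth, so r is a description. With a pseudocount of 1 in place of 10, 4 of the 10 genes were again among the nearest, and with ranks in place of levels none was. The 4 members were like each other in the same way, with r between 0.908 (*H2-Eb1* and *Cd74*) and 0.984 (*H2-Aa* and *H2-Ab1*).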

How the data were processed

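The authors deposited UMI counts per gene and cell, whole numbers after their removal of ambient RNA, with the library, cluster and population of each cell. Per the submitters' processing notes and the methods of the study, reads were aligned to mm10 with HISAT2 (2.0.4), reads with several origins were left out, UMIs were counted per RefSeq gene with ESAT, and ambient RNA was estimated with a modified SoupX. This removed 3.54% of UMIs, and leaving out shared reads can lower the counts of genes with close copies.

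Counts were summed per gene, population and library and divided by all UMIs of the group. Library totals were 4408989 (caput), 6602962 (corpus), 4882822 (cauda) and 10744928 (vas deferens) UMIs. Calls across genes required 20 UMIs over both groups and a ratio of 2 between segments or 4 between cell types, with 0 raised to 3 UMIs. Before shares were compared, cells were thinned to 1000 UMIs. Doublets were scored against simulated mixtures, and the 178 cells called (2.00%) were kept. The number called in each library was set from its number of cells. From 31.6% (caput) to 60.2% (vas deferens) of simulated doublets scored at or above the last call. Libraries shared 43 barcodes. The intervals and calls were tested on simulated counts drawn independently, as the intervals assume. Their width where UMIs cluster in single cells was not tested. The genes named were the members, the gene lists for loading, other class II genes, regulation, endosomal processing, turnover, costimulation, class I and interferon gamma, and the 10 genes most like the members. Members and lists were chosen with earlier results of these data known, and the list without *Cd52* after seeing the data. The alternatives tried were other thinning, filters, cells or libraries left out and *Cd74* left out. Computation used Python 3.11.15 with scipy 1.17.1 (intervals), scikit-learn 1.9.0 (doublets), matplotlib 3.10.9 (figures), pandas 2.3.3 and numpy 2.4.6.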

Additional observations from a re-analysis of the deposited data

How the results depend on the processing

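No paired analysis was possible because each segment has 1 library. Of 118 alternatives, 49 moved a value beyond its counting interval, or a count by over 1.5 times, and 5 turned a direction; 35 were chosen after seeing the data, among them counting BasalMacrophages as basal cells and leaving out the richest cells. Those that turned were the ratio of basal to principal cells in the corpus (1.29 without the richest principal cell), of muscle to principal cells (0.552 without the richest cells, 0.492 without cells holding an immune-marker UMI) and of clear to basal cells without the cauda (1.01) or the vas deferens (3.23), whose range was 0.563 to 3.23 with a library left out. The ratio of *Cd74* in clear to principal cells rose to 22.2 in the caput and 10.48 in the corpus without the richest principal cell. The ratio of immune to endothelial cells was 47.7 as a mean over cells, 62.0 with *Cd74* left out, and 58.1 to 1113 with a library left out. The ratio of endothelial to other non-immune cells was 17.3 with *Cd74* left out, 11.1 without non-immune cells holding a leukocyte UMI, 8.96 with BasalMacrophages counted as basal, and 1.21 to 14.02 with a library left out. The ratio of dendritic cells to macrophages was 2.19 as a mean over cells, 1.55 in cells of at least 1000 UMIs, 2.09 with *Cd74* left out, 1.58 without the richest cells, and 1.65 to 2.55 with a library left out. The ratio of vas deferens to epididymis in macrophages was 0.667 as a mean over cells, 0.848 with *Cd74* left out and 0.698 to 0.766 with a library left out, and in endothelial cells it was 23.1 to 44.8. The share of endothelial cells with a UMI was 30.2% unthinned, 10.0% at 2 UMIs or more, 7.00% with *Cd74* left out and 3.75% to 21.5% with a library left out. For principal cells it was 0.407% thinned to 500 UMIs, 2.05% unthinned, 0.0528% at 2 UMIs or more, 2.71% without cells holding a leukocyte UMI (*Cd52* included), 0.475% with *Cd74* left out and 0.773% to 1.25% with a library left out. For basal cells it was 3.62% thinned to 500 UMIs, 13.4% unthinned, 1.66% both at 2 UMIs or more and with *Cd74* left out, and 1.99% (without the vas deferens) to 8.36% with a library left out. Calls of higher genes fell with a doubled fold to 66 in macrophages, 85 in endothelial cells, 184 in basal cells, 20 between dendritic cells and macrophages and 433 between clear and principal cells, and with 50 UMIs required to 79, 172, 405 and 19 in the first 4. Of the 10 genes most like the members, 4 were shared at a pseudocount of 1 and 0 with ranks. The cause of these shifts was not tested. With 1 library per segment no difference between segments has a replicate check, and levels of under 10 UMIs, such as those of epididymal endothelium by gene, are known only within wide intervals.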

Other observations

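Other lists of the pathway gave few calls. Of the 4 genes of endosomal processing, *Ctsl* was called higher in macrophages of the vas deferens, where 14.3% of genes were. *Ifi30*, a thiol reductase of the endosome, was called lower there in endothelial cells (47.3 UPM in the epididymis, 6.60 UPM in the vas deferens), where 9.05% of genes were called lower, and in basal cells (49.9 and 19.99 UPM), where 8.27% were. *Ctsl* and *Lgmn* were called lower in dendritic cells than in macrophages, *Lgmn* at 185 against 818 UPM, where 13.3% of genes were called lower. *Cd40*, a costimulatory receptor, was the 1 gene of 3 on its list with enough UMIs in basal cells. It was called higher in the vas deferens, where 7.04% of genes were. Of the turnover list, 2 genes were in the table, and *March8* was called lower in basal cells of the vas deferens, where 8.27% of genes were. The chemokine *Cxcl9* had 17 UMIs (37.4 UPM) in endothelial cells of the vas deferens and 0 in those of the epididymis.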
